A study of Mus musculus with 6 samples.

Results

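Box H/ACA small nucleolar RNAs were measured in whole lung of CD1 mice, an outbred stock, after a sham procedure or after preconditioning by mechanical ventilation. Their genes carry symbols that start with Snora, and a gene was taken where a probe set of the array listed that symbol alone, which gave 26 of the 22180 genes measured. For a gene with more than 1 such probe set, the brightest by its mean level in the 6 mice was taken. The intact group held 3 sham mice and the preconditioned group 3 mice given 90 minutes of mechanical ventilation with low pressures, after which 1 week passed until the lung was taken. All 6 mice were 10 weeks old, and 100 ng of total RNA per mouse was amplified and hybridised to an array of its own. The values are log2 levels after RMA, so a difference of 1 is a doubling. RMA gives the arrays a shared distribution of probe values, so a change common to most genes is not visible. The labels call the mice biological replicates, and with 3 mice a group each mean and difference below is of limited precision.

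Box H/ACA small nucleolar RNAs are short nuclear RNAs that fold into hairpins followed by an H box and a terminal ACA. Each pairs with a stretch of ribosomal or spliceosomal RNA and directs the enzyme dyskerin to turn a chosen uridine into pseudouridine, and a few serve in cleavage of the ribosomal RNA precursor instead. In vertebrates most are cut out of an intron of a host gene, often one that encodes a ribosomal protein or translation factor, and the spliced host mRNA leaves the nucleus while the small RNA stays with its proteins. The array has a probe set with its symbol alone for each RNA described here, while 10 further probe sets list a Snora symbol beside other genes and were not used.

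Most H/ACA small nucleolar RNAs had higher levels in preconditioned lungs. Of the 26, 22 had a higher mean (84.6%, against 52.7% of all genes) and 4 a lower one, with a median log2 difference of 0.68 beside 0.01 over all 22180 genes. In 18 of them (69.2%) all preconditioned mice lay above all intact mice, a pattern found in 11.7% of all genes, and in 0 of them did the groups lie apart the other way (13% of all genes). A log2 difference above 1 was reached by 9 members, out of 28 genes in the whole table (0.126%). Only Snora41 passed an adjusted p of 0.05 in limma over all genes, where 8 genes (0.0361%) were called higher, and at an unadjusted p under 0.05 there were 17 members higher (65.4%, against 7.53% of all genes) and 0 lower (against 11.6%). At an adjusted p under 0.1 the count of members called higher was 13, against 0.807% of all genes. In bulk tissue, a change in the level per cell and a change in the share of cells that hold more of these RNAs cannot be told apart.

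**Figure D1:**
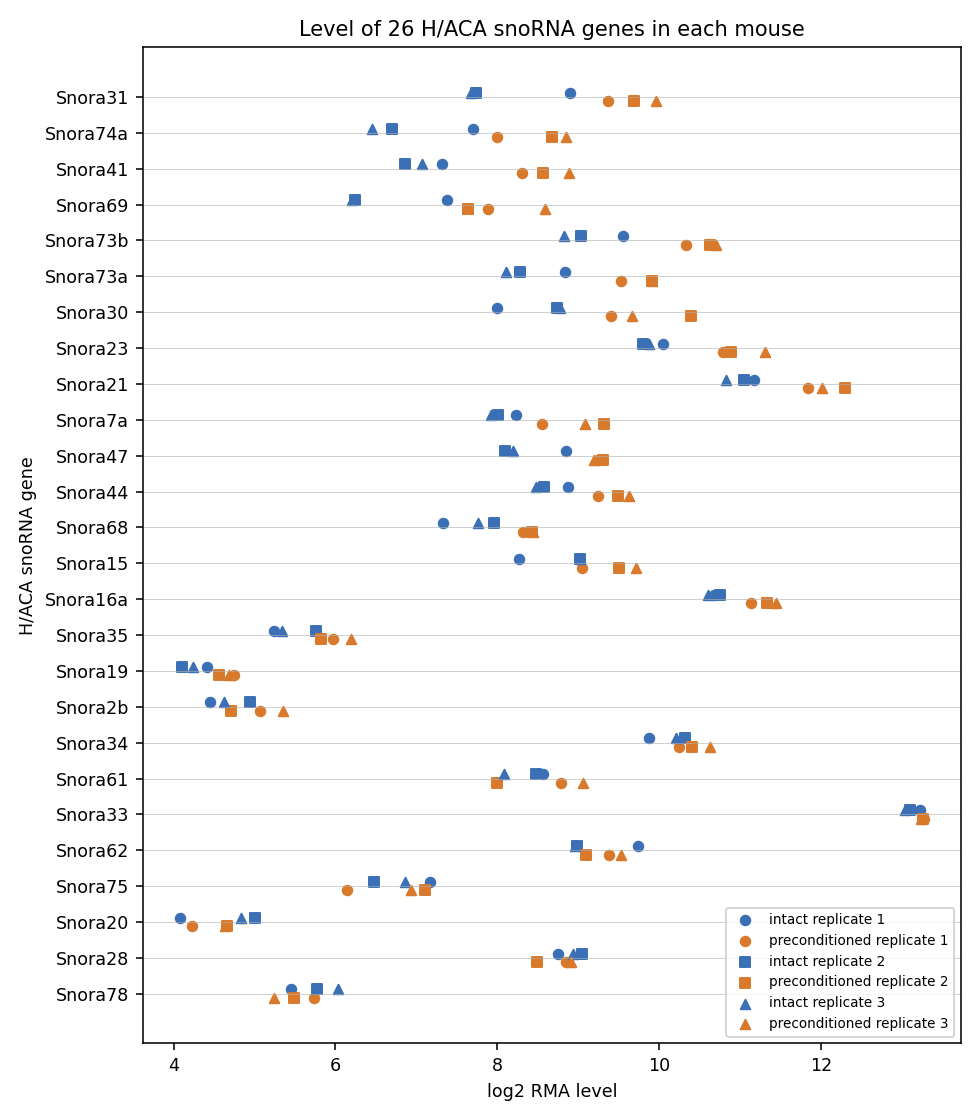
Log2 RMA level (horizontal axis) of each of the 26 H/ACA small nucleolar RNA genes (rows, ordered by the difference between group means) in the 3 intact mice (blue) and the 3 preconditioned mice (orange), with a symbol shape for each replicate number. From Snora31 down to Snora19 the orange points lie to the right of the blue ones, and the rows from Snora62 down overlap.

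The called member, Snora41, was at 7.32, 6.85 and 7.07 in intact replicates 1, 2 and 3 and at 8.31, 8.57 and 8.88 in the preconditioned ones. The lowest preconditioned mouse was 0.99 above the highest intact mouse. Its mean was 7.08 ± 0.23 in intact and 8.59 ± 0.29 in preconditioned lungs (SD, n = 3). Snora41 thus rose by a log2 of 1.51 (SE 0.17, 2.84-fold, limma adjusted p = 0.0399). The Snora41 gene lies within Eef1b2, which encodes a subunit of translation elongation factor 1. The difference lay between 1.36 and 1.65 in 17 other settings, which include the main fit read at an adjusted p under 0.1. The call held in 10 of them, that reading included. It was lost when intact replicate 2 or 3 or any of the preconditioned mice was left out (adjusted p from 0.0634 to 0.204), with the replicate number as a block (0.180) and over all probe sets of the table (0.0668).

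Snora73a and Snora73b, the copies of the U17 RNA, differ from most of the class in that they act in early cleavage of the small-subunit ribosomal RNA precursor and not as a pseudouridine guide. Snora73b was at 9.55, 9.03 and 8.83 in the intact replicates and at 10.33, 10.63 and 10.70 in the preconditioned ones, and the groups did not overlap. Its log2 difference of 1.42 (SE 0.19, 2.67-fold) had a limma adjusted p of 0.0503. Snora73a was at 8.83, 8.28 and 8.10 in intact and at 9.53, 9.91 and 9.91 in preconditioned mice, a log2 difference of 1.38 (SE 0.20, adjusted p = 0.0556). In each of these RNAs intact replicate 1 was the highest intact mouse and preconditioned replicate 1 the lowest preconditioned one. The copies are similar in sequence, and how far their probe sets read each other was not tested. Both lie within Snhg3, a noncoding gene known as a host of small nucleolar RNAs.

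Snora23 and Snora21 guide pseudouridines in the large-subunit ribosomal RNA. Snora23 was at 10.05, 9.81 and 9.87 in the intact replicates and at 10.79, 10.89 and 11.30 in the preconditioned ones, a log2 difference of 1.08 (SE 0.15, 2.12-fold, limma adjusted p = 0.0503). Snora21 was at 11.18, 11.05 and 10.83 in intact mice and at 11.83, 12.30 and 12.01 in preconditioned mice, a log2 difference of 1.03 (SE 0.14, 2.04-fold, adjusted p = 0.0556). The intact mice of these genes lay close together, with SDs of 0.13 and 0.18, and the gap between the groups was 0.74 for Snora23 and 0.66 for Snora21.

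The other members with a log2 difference above 1 varied more among mice. Snora31, inside the gene of the translationally controlled tumour protein Tpt1, was at 8.90, 7.73 and 7.68 in intact and at 9.37, 9.69 and 9.96 in preconditioned mice, a log2 difference of 1.57 (SE 0.31, 2.97-fold, limma adjusted p = 0.0860). Snora74a, the U19 RNA, was at 7.70, 6.70 and 6.45 in intact and at 7.996, 8.68 and 8.85 in preconditioned mice, a log2 difference of 1.56 (SE 0.33, adjusted p = 0.0892). Snora69, inside the ribosomal protein gene Rpl39, was at 7.37, 6.24 and 6.21 in intact and at 7.88, 7.64 and 8.58 in preconditioned mice, a log2 difference of 1.43 (SE 0.34, adjusted p = 0.102). For these 3 genes intact replicate 1 was more than 1 log2 unit above intact replicate 3. Snora30, inside the chromatin remodeller gene Srcap, showed the other order, with intact replicate 1 lowest (7.99, 8.74 and 8.77 in intact and 9.40, 10.40 and 9.67 in preconditioned mice). Its log2 difference was 1.32 (SE 0.29, adjusted p = 0.0914).

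Below these stood members with smaller differences whose groups still lay apart. Snora7a, inside Rpl32, was at 8.23, 8.01 and 7.92 in intact and at 8.56, 9.32 and 9.09 in preconditioned mice (log2 difference 0.94, adjusted p = 0.0860). Snora16a, with little spread among intact mice, was at 10.67, 10.75 and 10.61 in intact and at 11.13, 11.34 and 11.44 in preconditioned mice (log2 difference 0.63, SE 0.11, adjusted p = 0.0769). The differences of Snora47 (0.87), Snora44 (0.81), Snora68 (0.71), Snora15 (0.65), Snora35 (0.54) and Snora19 (0.41) had adjusted p-values from 0.0776 to 0.199. Snora44 is a guide for the small-subunit ribosomal RNA. Snora35, whose gene lies in the brain serotonin receptor gene Htr2c, was at 5.25, 5.76 and 5.34 in intact and at 5.97, 5.82 and 6.19 in preconditioned mice, and for this gene the gap between the groups was only 0.06. Gaps were narrower still, at 0.02 each, for Snora15 and Snora33, which are also counted as apart.

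Among the 8 members with the lowest differences, 7 had overlapping groups. Snora34 was at 9.87, 10.31 and 10.21 in intact and at 10.25, 10.41 and 10.62 in preconditioned mice (log2 difference 0.30, SE 0.15). Snora61 was at 0.24, with a preconditioned range from 7.99 to 9.06 that enclosed all intact mice. Snora62, the E2 RNA, was at 9.74, 8.99 and 8.96 in intact and at 9.37, 9.10 and 9.53 in preconditioned mice (0.10, SE 0.22). The 4 members with lower means in preconditioned lungs were Snora75 (-0.11, SE 0.26), Snora20 (-0.14, SE 0.24), Snora28 (-0.16, SE 0.14) and Snora78 (-0.26, SE 0.17), with limma adjusted p-values from 0.440 to 0.850. Snora28, a guide for the small-subunit ribosomal RNA, was at 8.74, 9.05 and 8.94 in intact and at 8.85, 8.49 and 8.91 in preconditioned mice. Snora2b, just above these in order, was at 0.37 with overlapping groups.

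Snora33 was the member whose reading depended on the probe set. The probe set used here by rule was at 13.22, 13.10 and 13.04 in intact and at 13.27, 13.26 and 13.24 in preconditioned mice, a log2 difference of 0.14 (SE 0.09). The other probe set of Snora33 was at 5.88, 5.59 and 5.99 in intact and at 7.32, 8.11 and 7.81 in preconditioned mice, a log2 difference of 1.93 (adjusted p = 0.0668 in a limma fit over all 41345 probe sets, of which 0.0145% were called higher). With the mean of the probe sets in place of the brighter one, Snora33 was at 1.03 with an adjusted p of 0.0348. The gene of Snora33 lies in the ribosomal protein gene Rps12. Snora19 also had 2 probe sets, and they held identical values.

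Seen by mouse, the mean over the members set the groups apart, while the order of the mice within a group differed among members. The mean deviation of the 26 genes from their own averages was -0.25, -0.37 and -0.44 in intact replicates 1, 2 and 3 and 0.19, 0.36 and 0.51 in preconditioned replicates 1, 2 and 3. Intact replicate 1 was the highest intact mouse for 16 members and the lowest for 9, and preconditioned replicate 3 was the highest preconditioned mouse for 16. Preconditioned replicate 1 was the lowest of its group for 16 members. The SD of a member within a group had a median of 0.28 in intact and 0.24 in preconditioned mice, and it was larger in intact mice for 16 of the 26. Without intact replicate 1, 14 members passed an adjusted p of 0.05 as higher, among 1.22% of all genes called higher in that fit. They included Snora31 (1.97), Snora74a (1.93), Snora69 (1.81), Snora73b (1.62), Snora73a (1.60), Snora23 (1.15) and Snora21 (1.11), while Snora30 did not pass (1.07, adjusted p = 0.0654). Without any other single mouse limma called 0 members, and 16 to 19 were higher at an unadjusted p under 0.05. At that level 4.58% and 4.29% of all genes were higher without intact replicates 2 and 3, and 6.76%, 6.93% and 5.94% without preconditioned replicates 1, 2 and 3. In those fits 0.00451% of all genes were called higher without intact replicates 2 or 3 or preconditioned replicates 2 or 3, and 0.00902% without preconditioned replicate 1.

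**Figure D2:**
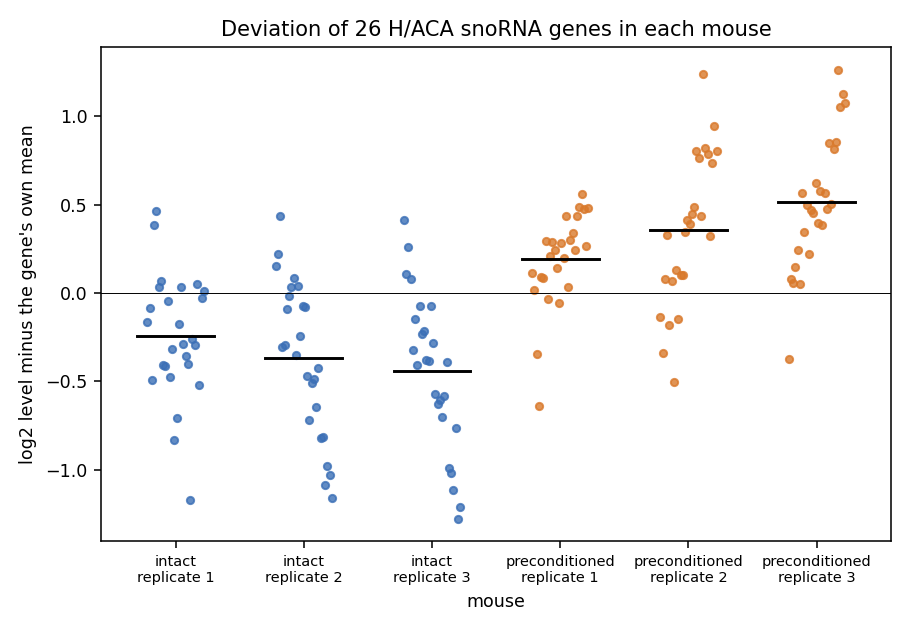
Deviation of each H/ACA small nucleolar RNA gene (points, log2 units) from the average of its group means, by mouse, with intact mice in blue, preconditioned mice in orange and the mean over the 26 genes as a black bar. The bars lie between -0.44 and -0.25 in intact mice and between 0.19 and 0.51 in preconditioned mice, while single genes lie on either side of 0 in every mouse.

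The other classes of small nuclear RNA also had positive median differences, smaller than that of the H/ACA genes, given as a description without a test between the classes. The 47 box C/D small nucleolar RNAs, which guide ribose methylation, had a median log2 difference of 0.39. Of these, 38 had a higher mean, 24 (51.1%) had all preconditioned mice above all intact mice, and 4 were above 1. The highest difference among the 47 was 1.79, above that of any H/ACA gene. Limma called 2 of them higher, and 53.2% were higher at an unadjusted p under 0.05. The 5 Cajal body RNAs, which guide changes in spliceosomal RNAs, had a median of 0.57, and the groups lay apart in 2 of them. The 4 genes with symbols that start with Rnu were grouped as spliceosomal RNAs by symbol alone. They had a median of 0.54 and a highest difference of 1.88, above that of any H/ACA gene, and limma called 1 of them higher. In 3 of these 4 (75%) the groups lay apart and the unadjusted p was under 0.05, shares above those of the H/ACA genes.

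**Figure D3:**
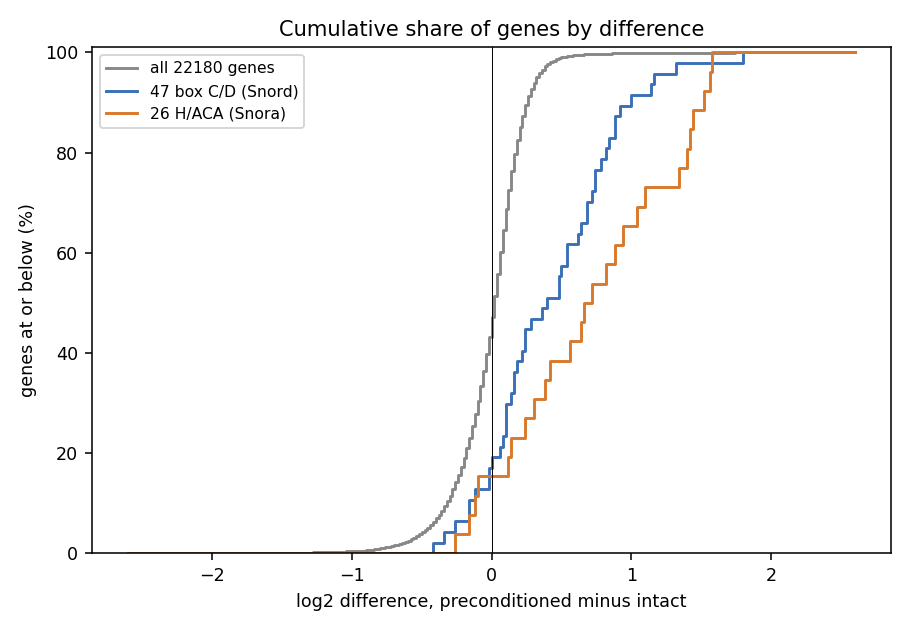
Cumulative share of genes (vertical axis, percent) at or below each log2 difference of preconditioned minus intact (horizontal axis) for all 22180 genes (grey), 47 box C/D genes (blue) and 26 H/ACA genes (orange). The H/ACA curve crosses the middle at 0.68, the box C/D curve at 0.39 and the curve of all genes at 0.01.

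No gene that spans a member was called by limma, which called only 8 higher and 13 lower of all 22180 genes. RefSeq's gene positions in GRCm38.p6 placed all 26 members inside another gene, 23 genes in all, and 20 of these had a probe set of their own. Their median log2 difference was -0.08, with 5 higher and 15 lower. At an unadjusted p under 0.05, 3 were higher and 2 lower, beside 7.53% and 11.6% of all genes. The member's difference exceeded that of its spanning gene in 20 of 24 pairs, by a median of 0.75. When the level of the spanning gene was subtracted in each mouse, the preconditioned mice lay above all intact mice in 15 pairs, below them in 1 and overlapped in 8. No share over all genes was computed for this count, and some of the 24 pairs share a spanning gene. By themselves 18 of the 26 members lay apart in the higher direction, so the count is not a separate result. The differences of single pairs were not tested. That table gives no strand, so a spanning gene on the opposite strand cannot be told from a host.

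Eef1b2, around Snora41, was at 9.77 ± 0.10 in intact and 9.71 ± 0.01 in preconditioned lungs (SD, n = 3), with a log2 difference of -0.06 (SE 0.09). Tpt1, around Snora31, was at 0.02 (SE 0.08), Rpl39 around Snora69 at -0.01 (SE 0.12), and Snhg4, a noncoding host gene around Snora74a, at -0.14 (SE 0.12). Snhg3 around Snora73a and Snora73b was at -0.14 (SE 0.13). Ipo7, a nuclear import receptor gene around Snora23, was at -0.34 (SE 0.13), and Zbed3 around Snora47 at -0.35 (SE 0.10, limma adjusted p = 0.122). Rps12, around Snora33, was higher by more than its member, at 10.65 ± 0.01 in intact and 10.99 ± 0.09 in preconditioned lungs (SD, n = 3), with groups that did not overlap (0.34, SE 0.09, limma adjusted p = 0.115). This was the pair whose member minus spanning gene lay apart in the lower direction (-0.20). That direction rests on the brighter probe set of Snora33, whose mean level lay above 99.96% of genes. How well a level so near the top of the array shows a difference was not tested. The other probe set had a log2 difference of 1.93, larger than that of Rps12. The spanning gene of Snora21, Rpl23, had no probe set with its symbol alone and was not analysed here.

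Members inside the same gene did not all have like differences. Snhg12 spans Snora44 (0.81), Snora16a (0.63) and Snora61 (0.24), and was itself at -0.08 (SE 0.15). Kansl2, a gene of a histone acetyltransferase complex, spans Snora2b (0.37) and Snora34 (0.30) and was itself at 0.29 (SE 0.11, adjusted p = 0.212). The 4 members with lower means lie in Ncl, the gene of nucleolin, at -0.02, Tcp1, a chaperonin subunit gene, at -0.14, the translation factor gene Eif5 at -0.11, and, for Snora78, in both Rps2 and the noncoding gene Snhg9, of which Snhg9 was measured (0.48, SE 0.16, adjusted p = 0.164). By kind of spanning gene, the 11 members in ribosomal or translation genes (with Snora78 counted there) had a median of 0.71. The 6 in noncoding host genes were at 1.10 and the 9 in other genes at 0.54, and the ranges of these sets overlapped. Counted with the noncoding host genes instead, Snora78 would lower their median and raise that of the ribosomal or translation set. The order of those sets therefore rests on where Snora78 is counted.

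**Figure D4:**
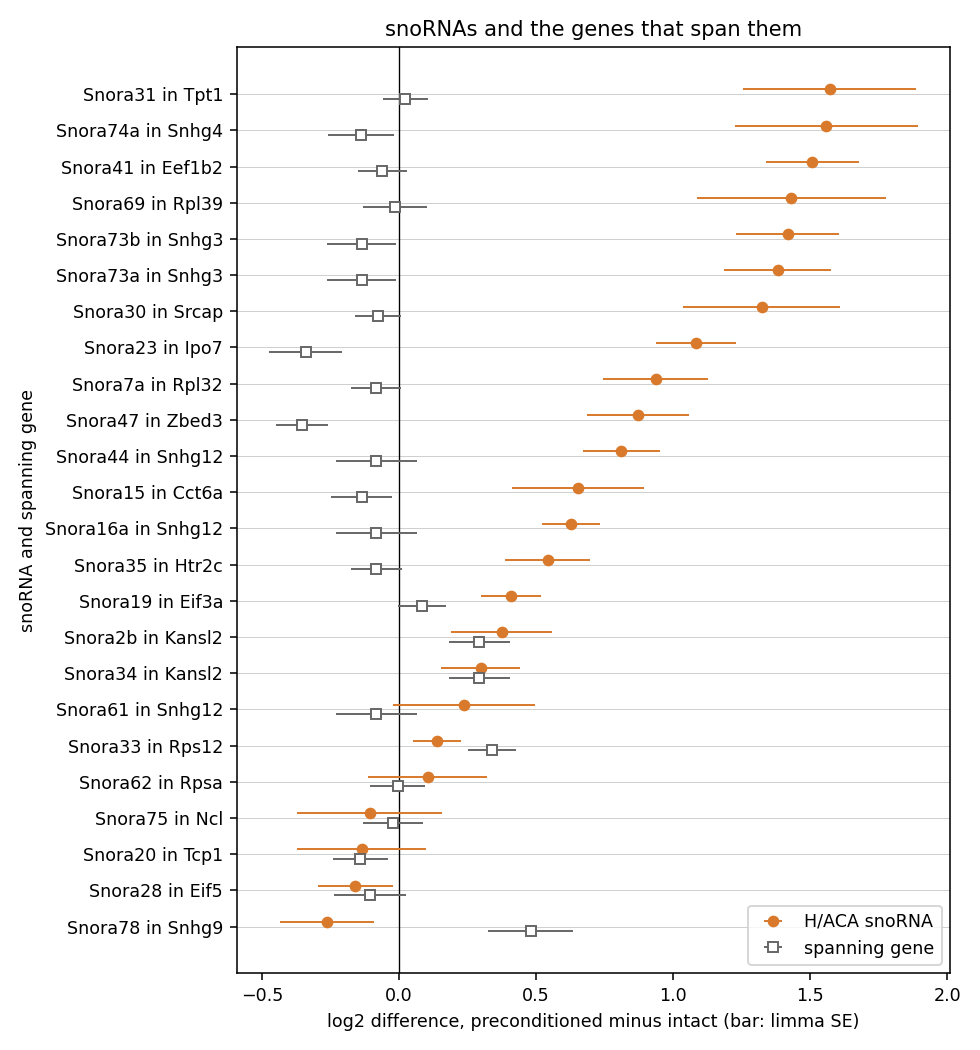
Log2 difference of preconditioned minus intact with its limma standard error for 24 H/ACA small nucleolar RNA genes (orange circles) and for the gene that spans each (open grey squares). The orange points reach 1.57, while the squares lie between -0.35 and 0.48.

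Since intronic members are made from the transcript of the spanning gene, its start region is shown for 3 measured genes around members that lead the results. The stretches come from RefSeq with build GRCm38.p6 and run, 5′ to 3′ on the strand of the gene, from 80 bases before the annotated start to 29 bases from it. They cover chr1:63176751-63176859 (plus strand) for Eef1b2, chr4:132353658-132353766 (minus strand) for Snhg3 and chr7:110018235-110018343 (plus strand) for Ipo7. Capitals mark the motif CCGGAAG, a form of the site that transcription factors of the ETS family bind, or its reverse complement CTTCCGG.
Eef1b2: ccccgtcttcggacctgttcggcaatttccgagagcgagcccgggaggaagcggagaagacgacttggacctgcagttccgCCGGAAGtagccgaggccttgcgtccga
Snhg3: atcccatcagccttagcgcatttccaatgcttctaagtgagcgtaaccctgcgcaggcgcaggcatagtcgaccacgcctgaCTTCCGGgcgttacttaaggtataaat
Ipo7: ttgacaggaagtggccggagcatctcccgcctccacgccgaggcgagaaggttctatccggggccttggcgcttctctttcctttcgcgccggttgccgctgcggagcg
The motif lies just after the annotated start of Eef1b2 and of Snhg3. These exact letters are not in the stretch of Ipo7, which does hold the shorter run GGAAG. Other forms of the site were not searched. In windows of 300 bases, from 250 before the start to 50 from it, with both strands searched, 8 of 22 windows of the spanning genes in the table (36.4%, 20 genes) held the motif, beside 8.86% of all 32851 windows. The motif was chosen after these stretches had been read, and the windows of Eef1b2 and Snhg3 are among the 8. The shares therefore do not test an enrichment, and a match is a run of letters and not a shown binding site.

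Transcripts for the H/ACA particle proteins, their assembly factors and helpers did not have higher levels as a set. The values are of mRNA, and protein was not measured. Of 14 genes listed for the core, its assembly and helpers, 6 had a higher mean and 8 a lower one. The median log2 difference was -0.16 and limma called none, beside only 8 higher and 13 lower of all 22180 genes. At an unadjusted p under 0.05, 3 were lower and 0 higher, beside 11.6% and 7.53% of all genes. The groups lay apart in the lower direction in 3 and in the higher direction in 1, Parn, beside 13% and 11.7% of all genes. Of the core proteins, Dkc1, the pseudouridine synthase dyskerin, was at 6.65, 7.09 and 6.90 in intact and at 6.61, 6.54 and 6.73 in preconditioned mice (-0.25, SE 0.13). Nop10, a small core protein, was at 9.88 ± 0.09 in intact and 9.62 ± 0.07 in preconditioned lungs (SD, n = 3), and its groups did not overlap (-0.25, SE 0.09). The core proteins Gar1 (0.08, SE 0.12) and Nhp2 (0.05, SE 0.13) overlapped between the groups.

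Of the assembly factors, Naf1, which holds the place of Gar1 in the immature particle, was at 6.69, 6.91 and 6.82 in intact and at 6.38, 6.56 and 6.44 in preconditioned mice (-0.34, SE 0.10, limma adjusted p = 0.136). Shq1, a chaperone of dyskerin, was at 0.00 (SE 0.15). The helpers lay between -0.29 for the nucleolar phosphoprotein gene Nolc1 and 0.15 for the Cajal body protein gene Coil. Tgs1, a cap methyltransferase gene, was at -0.27, Nvl at -0.23, Ruvbl2 at -0.19, Nufip1 at -0.14, Ruvbl1 at 0.05 and Parn, a ribonuclease gene, at 0.13.

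The arrays correlated at 0.978 to 0.993 across genes. The median of an array lay between 5.32 and 5.37 in intact mice and was higher, 5.39 to 5.40, in preconditioned mice, so this small offset moved with the groups. The upper quartile moved the other way, from 6.97 to 7.03 among intact arrays against a range of 6.94 to 6.95 among preconditioned ones, and 21 of the 26 members lay above the median level. The lung markers fixed for the tissue check, among them the surfactant gene Sftpc, were all in the upper part of the array, the lowest of the 9 above 80.2% of genes. Of these, 8 were lower in preconditioned lungs (median -0.28), with log2 summed levels of 15.26 to 15.53 in intact and 15.07 to 15.27 in preconditioned mice. The surfactant gene Sftpb (-0.49, SE 0.13) and the endothelial cadherin gene Cdh5 (-0.39, SE 0.14) were lower at an unadjusted p under 0.05, with groups that did not overlap. Markers of other cells also moved with the groups. All 8 mesothelial markers were lower in preconditioned lungs (median -0.88), with log2 summed levels of 11.35 to 11.82 in intact and 10.12 to 10.98 in preconditioned mice. All 8 neutrophil markers were lower (median -1.17), with summed levels of 9.02 to 10.89 and 8.54 to 8.79. Heart muscle markers (7 of 8 lower) ranged from 11.83 to 12.37 and from 9.81 to 13.04, and adipocyte markers (5 of 7 lower) from 8.68 to 9.67 and from 8.34 to 9.23. None of these markers was called in limma, beside only 8 higher and 13 lower of all 22180 genes. At an unadjusted p under 0.05, 7 mesothelial and 6 neutrophil markers were lower, beside 11.6% of all genes. Log2 array values have no 0, and the part of these cells, of the lung markers and of the array offsets in the small RNA values was not tested.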

How the data were processed

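Lung RNA of 6 mice was measured on a 1-colour whole-transcript array per mouse. The deposited values are log2 and, per the submitters' processing notes, come from RMA (background correction, quantile normalization, probe summary). limma is named there too. Versions, probe annotation and genome build were not given in the sources used here.

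Of 41345 probe sets, 23521 carried 1 gene symbol, 1814 several and 16010 were unlisted. The brightest probe set per gene gave 22180 genes. Each was fitted with limma (lmFit, eBayes; no trend, covariate or level filter), preconditioned minus intact, with Benjamini-Hochberg adjustment over all genes at 0.05. The script was tested on simulated data. Spanning genes came from RefSeq positions in GRCm38.p6, where all 26 members matched. The plan asked for the same strand, which that table does not give. Array values have no read depth. Sequences of the small RNAs were not used here.

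Members and lists were chosen with earlier results of these data known. Described in full were Snora41, Snora73b, Snora23 and Snora21, called members, the 8 highest and 8 lowest differences, the 4 brightest members, selected copies, and their spanning genes. Alternatives were a level filter, 3 further normalizations, another prior, array weights, a replicate block, other probe set rules, another threshold and leaving out each mouse. A fit over all probe sets was added after the data were seen. Software: limma 3.58.1 in R 4.3.3 for the fits, and matplotlib 3.10.9 in python 3.11.15 for the plots.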

Additional observations from a re-analysis of the deposited data

Results flagged for a closer look

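Of the 38 probe sets with a Snora symbol, 10 list it beside other symbols and entered no comparison above. All 10 had a higher mean in preconditioned lungs, and in 8 every preconditioned mouse lay above every intact mouse, which brought them here (12.9% of all 41345 probe sets did so). In a limma fit over all 41345 probe sets none of the 10 passed an adjusted p of 0.05 (9 were higher at an unadjusted p under 0.05), and 6 probe sets of the table (0.0145%) were called higher. Which of the listed RNAs such a probe set reads cannot be told apart.

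The probe set listed for Snora36b and the microRNA gene Mir664 was at 6.49, 5.52 and 6.19 in intact and at 8.41, 9.47 and 9.08 in preconditioned mice, a log2 difference of 2.92 (adjusted p = 0.0668). The one listed for Snora81 and the translation factor gene Eif4a2 was at 8.90, 8.12 and 8.27 and at 10.15, 10.87 and 10.76, a log2 difference of 2.16 (adjusted p = 0.0668). These differences were larger than that of any member with a symbol of its own. The 2 probe sets listed for Snora17 and its noncoding host gene Snhg7 were at 1.31 and 0.98, and the one for Snora43 and Snhg7 at 0.79. The probe set of Snora70 with Gm5621 and Rpl10 was at 1.02, that of Snora5c with Tbrg4 at 0.64 and that of Snora52 with Rplp2 at 0.57. The groups overlapped for the probe sets of Snora3 with Gm13981 and Rpl27a (0.91) and of Snora24 with Snhg8 (0.19).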

How the results depend on the processing

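The median difference of the members stayed between 0.58 and 0.80 in all alternatives run but the level filter, where it was 0.87 over the 21 members above the median level. Counts of calls moved more. Against 1 member among 8 genes called higher, the count was 5 of 26 above the median level, 5 of 21 with an intensity trend and robust prior, 2 of 10 after cyclic loess and over all probe sets with 1 symbol, 2 of 11 after quantile normalization again, 1 of 6 after median centring, 4 of 12 with the mean over probe sets, 15 of 290 with array weights, 13 of 179 at an adjusted p under 0.1 and 0 of 6 over all probe sets of the table. Leaving out 1 mouse gave 0 to 14 members, 14 of 271 genes without intact replicate 1 and 0 of 1 to 2 in the other 5 fits. Against 21 genes called in either direction, the counts were 76 above the median level, 55 with trend and robust prior, 1125 with array weights, 642 at an adjusted p under 0.1, 12 over all probe sets of the table and 2 to 1228 without 1 mouse. With the replicate number as a block, 4 genes (1 higher) and 0 members were called (Snora41 adjusted p = 0.180). The deviations of mice with the same number correlated at -0.06, -0.31 and -0.07. With 3 mice a group the deviations are tied together, so these values do not settle whether the numbers pair the mice. Signs were followed over the settings for 19 named members only. Among these, the sign changed over the fits without 1 mouse in 3 members called in no setting. Snora62 lay between -0.032 and 0.36, Snora75 between -0.30 and 0.18 and Snora20 between -0.42 and 0.046. The cause of these shifts was not tested.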
